A study of Arabidopsis thaliana with 12 samples.

Results

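The lipid A genes of Arabidopsis thaliana were followed in whole seedlings of the wild type Col-0 and of RNAi-MARS, whose long non-coding RNA MARS (AT5G00580) is the target of an RNA interference construct. They are 10 of the 69383 features counted in each library. The 5 genes listed as LpxC1 to LpxC5 were chosen by their lower counts in RNAi-MARS, so their genotype difference is described here without a test. The other 5 genes, LpxA, LpxD1, LpxD2, LpxB and LpxK, were chosen because they act in the same pathway elsewhere in the genome, and their differences were tested.

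All seedlings were 12 days old and were grown on plates with sugar. Each genotype was collected before ABA (0 h) and 4 h after a spray with 10 µM of the hormone abscisic acid in water, which gives 4 groups of 3 libraries of polyadenylated RNA named A, B and C. No group was sprayed with water alone, so ABA, spraying and elapsed time cannot be told apart. The promoter of the RNA interference construct is not given in the sources used here, and the series design names RNAI-MARS-1, so an effect of the construct and any other difference of that material from Col-0 cannot be told apart. Whether libraries A, B and C of a group were grown separately is not labelled, and the p-values then measure only how these samples vary, which may be technical variation. Fewer cells that express a gene and less RNA per cell cannot be told apart in whole seedlings.

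Lipid A is the membrane anchor of lipopolysaccharide in Gram-negative bacteria, and plants keep homologues of the enzymes that make it. In bacteria LpxA adds an acyl chain to UDP-N-acetylglucosamine, LpxC then removes the acetyl group in the committed step, LpxD adds another acyl chain, LpxB joins the sugars into a disaccharide and LpxK phosphorylates it. The Arabidopsis enzymes are directed to mitochondria, where mitochondrial fatty acid synthesis supplies acyl chains, and the sugar acid Kdo is added by KDTA. The question put to these data was whether the fall of the LpxC genes was accompanied by a change of the other steps, and how each step behaved after ABA.

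The sequences of the LpxC genes decide what their counts can show. In the TAIR10.1 reference LpxC1 (AT1G24793) lies at chr1:8767562-8769571, LpxC3 (AT1G25054) at chr1:8804489-8806361, LpxC4 (AT1G25145) at chr1:8818867-8820736 and LpxC5 (AT1G25210) at chr1:8833245-8835235, all on the plus strand. Each has 7 coding exons and a coding length of 981 bases. Over the 2010 bases of LpxC1 all 4 were 100% identical, introns included. A further stretch, chr1:8781942-8783950, was 99.95% identical to LpxC1 and has no gene model in this annotation. It lacks 1 base of a run of G in coding exon 3, which is shown here because it is the only letter that separates the 5 loci over the gene. The run is in capitals.
LpxC1, chr1:8768424-8768465: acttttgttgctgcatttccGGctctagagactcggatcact
Locus without a gene model, chr1:8782804-8782844: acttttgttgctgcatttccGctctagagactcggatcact

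AT1G24880, the identifier listed as LpxC2, was different. Its TAIR10.1 gene model, chr1:8775901-8778072, has a coding length of 378 bases and shared 2 of its 2101 distinct words of 16 letters with LpxC1, or 0.095%. It shared 100% of them with each of the non-coding genes AT1G25098 and AT1G25175. The stretch recurs 3 more times in the segment, at chr1:8798429-8800600 with 100% identity and at chr1:8812809-8814978 and chr1:8827187-8829356 with 99.9% identity. The first 80 bases from the annotated start codons are shown with the codon in capitals, to set both families side by side. The first line is the same at all 5 LpxC loci and the second at all 4 copies of the AT1G24880 stretch.
LpxC1, LpxC3, LpxC4, LpxC5 and the locus without a gene model: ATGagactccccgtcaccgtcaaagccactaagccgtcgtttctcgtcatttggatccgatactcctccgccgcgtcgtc
AT1G24880 and its copies: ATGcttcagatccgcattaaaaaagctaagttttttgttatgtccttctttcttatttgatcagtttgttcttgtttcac

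The extent that the authors' annotation gave AT1G24880 is not stated in the sources used here. The sum of the 5 listed genes was therefore reported beside the sum of the 4 identical copies LpxC1, LpxC3, LpxC4 and LpxC5, a choice made after the sequences and counts had been seen. The identity of the LpxC loci runs past the genes. The 300 bases before the start of LpxC1 were the same at all 5 loci, and identity with LpxC1 reached 1928 bases before it and 4186 bases after it, except at LpxC5, where it ended after 1271 and 519 bases. The copies follow each other in steps of 14380, 22528, 14378 and 14378 bases, so the step of 22528 bases is longer than the others.

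**Figure D1:**
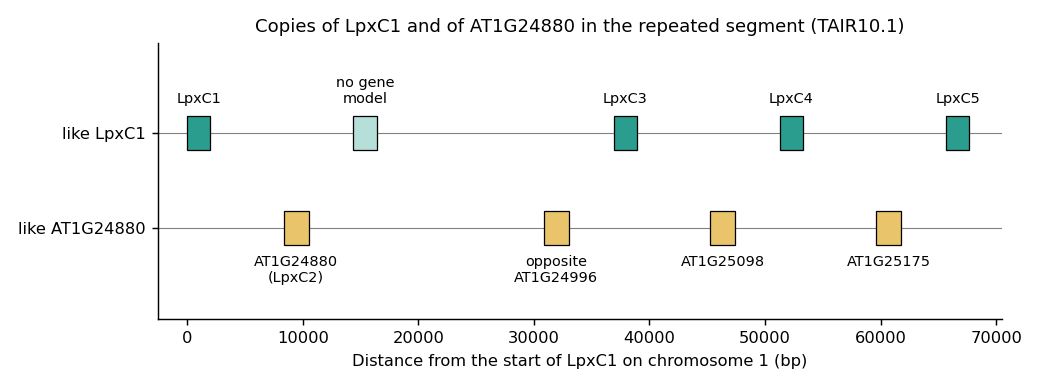
Positions of the 5 loci like LpxC1 (upper line; the pale box has no gene model) and of the 4 stretches like AT1G24880 (lower line), as distance in bases from the start of LpxC1 in TAIR10.1. Box widths are to scale, and the LpxC loci start at 0, 14380, 36908, 51286 and 65664 bases.

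The deposited counts of the 4 identical copies were almost the same number in every library, as is the case when reads are divided between places they match equally. In Col-0 before ABA library A, LpxC1 held 336.25 counts and LpxC3, LpxC4 and LpxC5 each held 335.85. LpxC3 and LpxC4 were equal in all 12 libraries. The highest and the lowest of the 4 copies never differed by more than 2.7 counts, or 0.564%. The 4 copies therefore give 1 measurement, and which of them was transcribed cannot be told apart. Where the authors placed reads of the locus without a gene model was not given in the sources used here.

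AT1G24880 held 8.62 to 11.7 times the mean count of the identical copies and 68.3% to 74.5% of the 5-gene sum. Its count was 0.894 to 0.941 times that of AT1G25098 and 0.886 to 0.939 times that of AT1G25175 in every library. Values of AT1G24880 are uncertain for the same reason, and it also overlaps AT1G24822 in TAIR10.1.

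The 4 identical LpxC copies together stood about as far below Col-0 in RNAi-MARS before ABA as AT1G24880 did. Levels are in CPM, a gene's counts relative to the library total after scaling with TMM factors. In Col-0 before ABA the sum of the 4 copies was 67.0, 66.3 and 60.4 CPM in libraries A, B and C, a mean of 64.6 ± 3.63 (SD, n = 3). In RNAi-MARS before ABA it was 16.2, 16.8 and 16.5 CPM, a mean of 16.5 ± 0.308 (SD, n = 3). Every RNAi-MARS library was far below every Col-0 library, at 25.6% of the Col-0 mean. The log2 difference was -1.97 ± 0.10 (SE), a 3.91-fold lower level.

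After ABA the measured distance between the genotypes was smaller, but this change was not called (edgeR adjusted p = 0.947 for the difference between the ABA responses). The sum of the 4 copies was 57.0, 67.3 and 60.6 CPM in Col-0, a mean of 61.7 ± 5.19 (SD, n = 3), and 21.7, 19.1 and 17.2 CPM in RNAi-MARS, a mean of 19.3 ± 2.30 (SD, n = 3). The groups again did not overlap, and the RNAi-MARS mean was 31.4% of the Col-0 mean. The log2 difference was -1.67 ± 0.10 (SE), or 3.18-fold lower.

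AT1G24880 had 168, 154 and 177 CPM in Col-0 before ABA and 44.4, 42.0 and 41.0 CPM in RNAi-MARS, with means of 166 ± 11.3 and 42.5 ± 1.73 (SD, n = 3). After ABA it had 140, 145 and 156 CPM in Col-0 and 60.9, 51.4 and 45.9 CPM in RNAi-MARS, with means of 147 ± 7.99 and 52.8 ± 7.58 (SD, n = 3). The genotypes did not overlap at either time. The log2 difference was -1.97 ± 0.11 (SE) before ABA and -1.48 ± 0.11 (SE) after it. For its non-coding copy AT1G25098 the values were -2.01 ± 0.10 and -1.45 ± 0.10 (SE).

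Summed over the 5 listed genes, the level was 231 ± 8.92 CPM in Col-0 and 59.0 ± 1.55 CPM in RNAi-MARS before ABA, and 209 ± 10.11 against 72.1 ± 9.88 CPM after it (SD, n = 3). The log2 difference of this sum was -1.97 ± 0.10 (SE) before and -1.53 ± 0.10 (SE) after ABA. Over all 22465 features tested with edgeR, 0.0890% were called for the genotype before ABA at a Benjamini-Hochberg adjusted p under 0.05, and 0.0801% were called lower in RNAi-MARS. After ABA the shares were again 0.0890% and 0.0801%. All 5 listed genes are among those called lower at both times, which is how they were chosen. Of these, LpxC1, LpxC3, LpxC4 and LpxC5 are a single measurement, and AT1G24880 is a different sequence in TAIR10.1. Their median log2 difference was -1.97 before and -1.67 after ABA, which follows from that choice and rests mostly on the identical copies. Over all tested features it was 0.00 and -0.01.

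**Figure D2:**
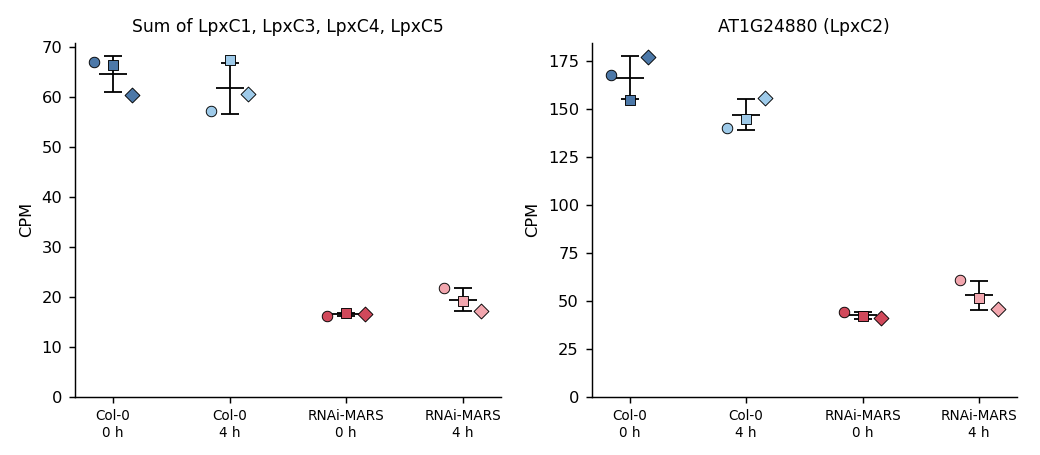
Level in CPM (axis from 0) of the sum of the 4 identical LpxC copies (left) and of AT1G24880 (right) in the 4 groups; circles, squares and diamonds are libraries A, B and C, and black lines are the mean and SD of 3 libraries. In both panels all 6 RNAi-MARS libraries lie below all 6 Col-0 libraries, and the RNAi-MARS libraries at 4 h lie above those at 0 h.

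The levels of MARS in the 3 RNAi-MARS libraries lay below those of all 3 Col-0 libraries of the same time. It had 6.63, 2.60 and 0.344 CPM in Col-0 before ABA against 0.196, 0.156 and 0.167 CPM in RNAi-MARS, and 21.3, 9.09 and 20.1 CPM against 2.30, 1.34 and 4.11 CPM after ABA. Library C of Col-0 before ABA stood near the RNAi-MARS libraries. The difference was not called by edgeR before ABA (adjusted p = 0.996) or after it (adjusted p = 0.477), with 3 to 6 counts of MARS per RNAi-MARS library before and 58 to 85 after ABA.

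No difference of the size seen in LpxC was measured at the other steps of the pathway. None of the 5 genes outside the segment was called by edgeR for the genotype at either time, and limma-voom called none either. DESeq2 called none, but after ABA it gave no adjusted p for LpxA, LpxD1, LpxD2 and LpxK. With edgeR 0.0890% of all tested features were called at each time. At that share a call among 5 genes would be rare. Before ABA the log2 genotype differences of the 5 genes had a median of 0.05, with 4 above and 1 below zero. After ABA they had a median of 0.09, with all 5 above zero. Over all tested features the medians were 0.00 and -0.01. An unadjusted p under 0.05 was reached by 0 of the 5 before ABA and by 1 after it, and that gene was LpxA. The share of all tested features with such a p was not computed for the genotype.

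LpxA (AT4G29540, chr4:14497560-14500504) makes the substrate on which LpxC acts. Before ABA it had 3.49, 4.30 and 3.44 CPM in Col-0 and 3.68, 4.10 and 3.87 CPM in RNAi-MARS, and the groups overlapped. After ABA it had 2.90, 3.06 and 3.45 CPM in Col-0 and 5.16, 4.42 and 3.67 CPM in RNAi-MARS. Each RNAi-MARS library was then above each Col-0 library, by a log2 difference of 0.50 ± 0.17 (SE, 95% interval 0.13 to 0.86). That difference did not pass the edgeR threshold (adjusted p = 0.480, unadjusted p = 0.0118). The share of all tested features whose groups separate in this way was not computed.

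LpxD1 and LpxD2 are homologues of the acyltransferase that follows LpxC. LpxD1 (AT4G05210, chr4:2682613-2685896) was the lowest of the pathway, with 12 to 51 counts per library. It had 1.097, 0.693 and 1.13 CPM in Col-0 before ABA and 1.02, 0.830 and 0.919 CPM in RNAi-MARS. After ABA it had 0.588, 0.675 and 0.664 CPM in Col-0 and 0.653, 1.17 and 0.580 CPM in RNAi-MARS. The genotypes overlapped at both times, and library B of RNAi-MARS after ABA stood above its group. With so few counts the interval of the genotype difference was wide, -0.75 to 0.62 on the log2 scale before ABA and -0.35 to 1.07 after it.

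LpxD2 (AT4G21220, chr4:11316828-11319137, minus strand) had 2.59, 3.45 and 2.67 CPM in Col-0 before ABA and 3.60, 2.96 and 2.73 CPM in RNAi-MARS. After ABA it had 2.09, 2.55 and 2.61 CPM in Col-0 and 2.44, 2.33 and 2.95 CPM in RNAi-MARS. The genotypes overlapped at both times, with log2 differences of 0.08 ± 0.19 and 0.09 ± 0.19 (SE). LpxD1 and LpxD2 were 74.1% to 76.8% identical over the stretches that aligned, and the counts of LpxD2 were not whole in some libraries.

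LpxB, the disaccharide synthase homologue (AT2G04560, chr2:1590182-1592703, minus strand), had 5.33, 5.54 and 4.78 CPM in Col-0 before ABA and 5.48, 6.27 and 5.54 CPM in RNAi-MARS. After ABA it had 4.08, 5.92 and 4.60 CPM in Col-0 and 5.60, 5.02 and 4.35 CPM in RNAi-MARS. The groups overlapped at both times. The log2 difference was 0.14 (95% interval -0.21 to 0.49) before ABA and 0.04 (95% interval -0.31 to 0.40) after it.

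LpxK, the homologue of the lipid A kinase (AT3G20480, chr3:7151387-7153464, minus strand), had 2.39, 1.84 and 2.91 CPM in Col-0 before ABA and 2.66, 2.54 and 2.12 CPM in RNAi-MARS. After ABA it had 2.25, 2.96 and 2.52 CPM in Col-0 and 3.16, 2.63 and 2.42 CPM in RNAi-MARS. The groups overlapped at both times, with log2 differences of 0.03 (95% interval -0.43 to 0.50) and 0.09 (95% interval -0.37 to 0.55). For LpxD1, LpxD2, LpxB and LpxK the edgeR adjusted p of the genotype difference lay between 0.760 and 0.997 over both times. None of these intervals reaches the size described for LpxC.

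**Figure D3:**
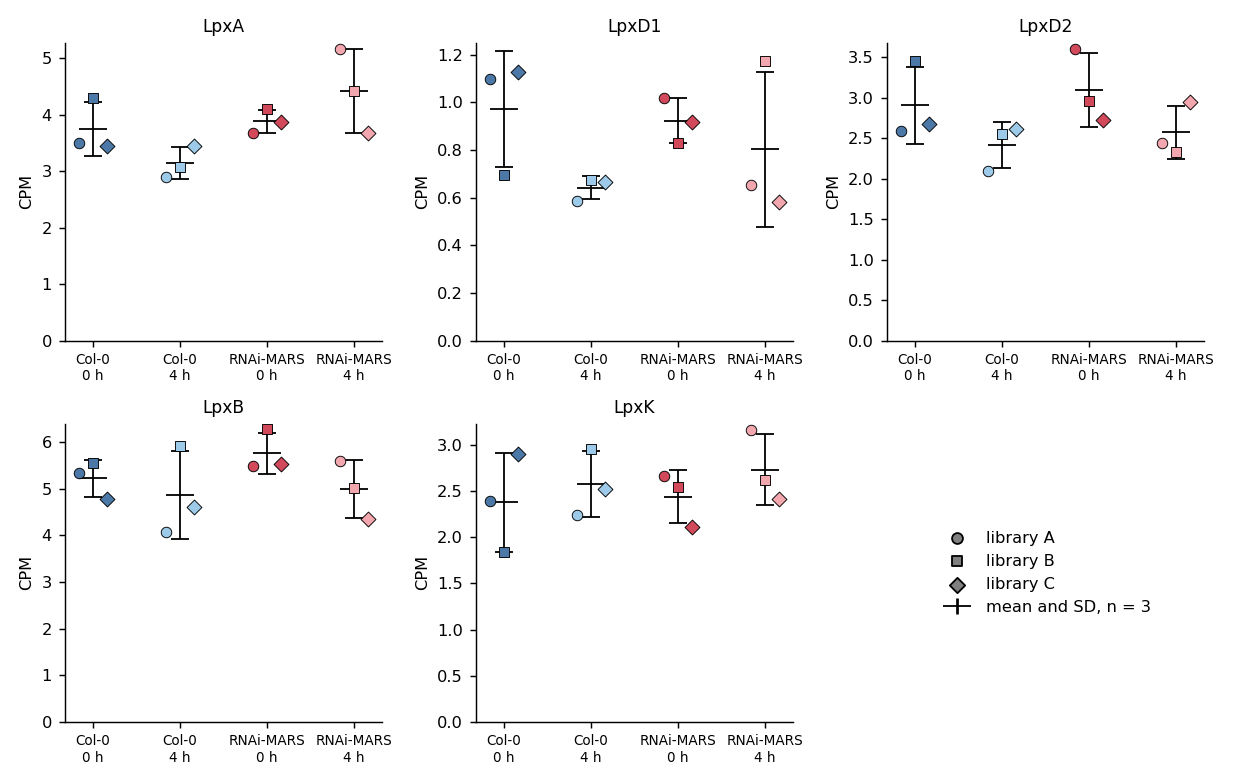
Level in CPM (axes from 0, scaled per gene) of LpxA, LpxD1, LpxD2, LpxB and LpxK in the 4 groups; symbols are libraries A, B and C, and black lines the mean and SD of 3 libraries. The genotypes overlap for each gene and time except LpxA at 4 h, where RNAi-MARS (3.67 to 5.16 CPM) lies above Col-0 (2.90 to 3.45 CPM).

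**Figure D4:**
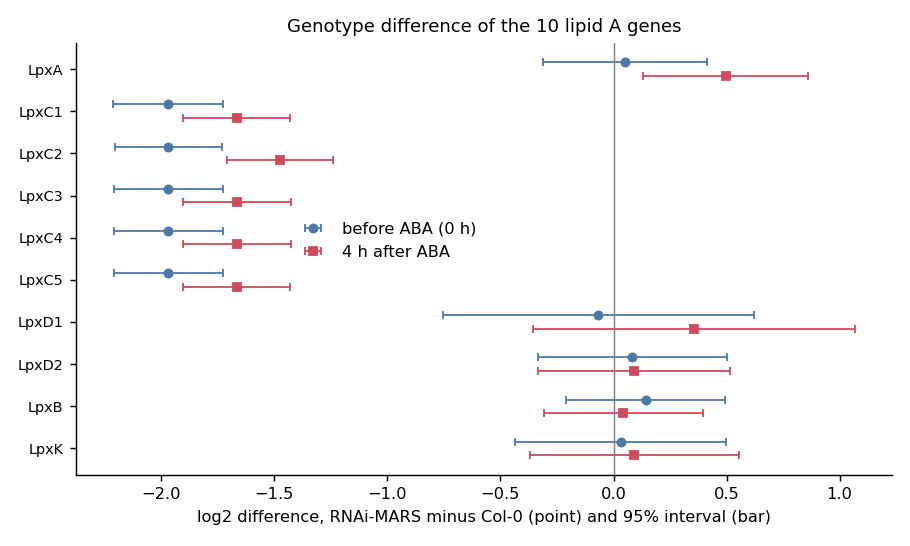
Log2 difference of RNAi-MARS minus Col-0 for the 10 genes before (circles) and 4 h after ABA (squares), with 95% intervals from the edgeR fit. The genes listed as LpxC, which were chosen by this difference, lie between -1.97 and -1.48, and the other 5 genes lie between -0.07 and 0.50. LpxC1, LpxC3, LpxC4 and LpxC5 are a single measurement, and LpxC2 is AT1G24880.

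Compared per length, LpxC stood above every other step in both genotypes, by a smaller margin in RNAi-MARS. Levels were divided by the exon length of each gene in TAIR10.1 and are given as CPM per kb, with the 4 identical copies counted as 1 gene. Their sum was divided by the exon length of LpxC3, 1227 bases. The models of LpxC1 and LpxC5 are longer, with 1364 and 1345 bases, and would give lower LpxC levels and ratios. In Col-0 before ABA the order was LpxC with 52.6 ± 2.96, LpxB with 3.31 ± 0.248, LpxD2 with 2.56 ± 0.416, LpxA with 1.74 ± 0.224, LpxK with 1.46 ± 0.329 and LpxD1 with 0.409 ± 0.102 (SD, n = 3). Neighbours in that order overlapped between LpxB and LpxD2 and between LpxA and LpxK.

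In RNAi-MARS before ABA the order was the same, with LpxC at 13.4 ± 0.251, LpxB at 3.65 ± 0.279, LpxD2 at 2.73 ± 0.400, LpxA at 1.81 ± 0.0969, LpxK at 1.497 ± 0.176 and LpxD1 at 0.388 ± 0.0397 CPM per kb (SD, n = 3). No neighbours overlapped in that group. After ABA LpxC had 50.2 ± 4.23 CPM per kb in Col-0 and 15.8 ± 1.87 in RNAi-MARS (SD, n = 3), LpxB followed in both, and LpxD1 was last with 0.270 ± 0.0201 and 0.338 ± 0.137. LpxK and LpxA overlapped in both genotypes after ABA, and LpxD2 and LpxA overlapped in RNAi-MARS.

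The ratio of the LpxC level to that of another step, both per kb and within a library, needs no scaling between libraries. This ratio was also lower in RNAi-MARS, and how much lower depended on the gene that LpxC was set against. Before ABA LpxC was 15.4 to 16.2 times LpxB in Col-0 and 3.45 to 3.82 times in RNAi-MARS. It was 27.0 to 33.6 times LpxA in Col-0 and 7.18 to 7.70 times in RNAi-MARS. After ABA it was 14.6 to 17.99 against 4.90 to 5.08 times LpxB, and 30.7 to 38.4 against 7.37 to 8.17 times LpxA. The genotypes did not overlap in any of these ratios, which rest on the values that chose LpxC and so carry no test.

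ABA did not move the LpxC genes in Col-0 past the threshold. The 5-gene sum had 235, 221 and 237 CPM before and 197, 212 and 216 CPM 4 h after ABA. Each library after ABA was below each library before it, and the log2 change was -0.15 ± 0.10 (SE, edgeR adjusted p = 0.263). The sum of the 4 identical copies overlapped between the times, with a change of -0.07 ± 0.09 (SE, edgeR adjusted p = 0.601). In this comparison edgeR called 40.0% of the tested features, 20.7% higher and 19.3% lower after ABA. It called 0 of the 5 genes listed as LpxC, of which the 4 identical copies are a single measurement. None of the 5 reached an unadjusted p under 0.05, and DESeq2 and limma-voom called none.

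In RNAi-MARS the 5-gene sum and AT1G24880 rose after ABA, while the sum of the 4 identical copies did not pass the threshold. AT1G24880 makes up 68.3% to 74.5% of the 5-gene sum, so these rises are not separate results. The RNAi-MARS values compared here also entered the choice of the LpxC genes. The 5-gene sum had 60.6, 58.8 and 57.5 CPM before and 82.7, 70.6 and 63.1 CPM after ABA, with no overlap between the times. The log2 change was 0.29 ± 0.10 (SE, edgeR adjusted p = 0.0345, higher in 3 of 3 libraries). AT1G24880 alone rose by 0.31 ± 0.11 on the log2 scale (SE, edgeR adjusted p = 0.0314). The sum of the 4 identical copies changed by 0.23 ± 0.10 (SE, edgeR adjusted p = 0.0738), and each copy alone by 0.24 ± 0.11 (SE, edgeR adjusted p = 0.107). Here edgeR called 42.6% of the tested features, 21.6% higher and 21.0% lower.

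That call was narrow. The adjusted p of the 5-gene sum was 0.130 without library A of RNAi-MARS after ABA, which had the highest level, and 0.0598, 0.0862 and 0.107 without library A, B or C of RNAi-MARS before ABA. With the RNAi-MARS libraries fitted alone it was 0.0644. For AT1G24880 the adjusted p was 0.120 without library A after ABA, 0.0841 and 0.103 without library B or C before ABA, and 0.0557 with the RNAi-MARS libraries alone. The sum of the 4 identical copies changed by 0.14 to 0.31 with 1 library left out, and it was called only without library C of RNAi-MARS after ABA (0.31, adjusted p = 0.0267).

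The ABA responses of the LpxC genes were not shown to differ between the genotypes. The response of the 5-gene sum was higher in RNAi-MARS by 0.44 ± 0.14 on the log2 scale (SE), with an edgeR adjusted p of 0.947 and an unadjusted p of 0.00932. For the 4 identical copies the difference was 0.30 ± 0.13 (SE, adjusted p = 0.947, unadjusted p = 0.0471). This contrast called 0% of the 22465 tested features with edgeR, while 1076 had an unadjusted p under 0.05. DESeq2 called 4 features and limma-voom 0, and no LpxC gene was among them. It is also the difference between the genotype values at 4 h and 0 h given above, since all of these comparisons share their libraries.

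None of the other 5 lipid A genes was called for the ABA response in either genotype or for the difference between the responses. Of all tested features 40.0% were called in Col-0, 42.6% in RNAi-MARS and 0% for the difference. In Col-0 the log2 changes of the 5 genes had a median of -0.25, with 1 above and 4 below zero. In RNAi-MARS they had a median of -0.17, with 2 above and 3 below. The medians of all tested features were 0.00 and -0.02. LpxD1 was lower after ABA in every Col-0 library, at 66.1% of the level before it, and the change of -0.59 ± 0.33 (SE, 95% interval -1.31 to 0.12) did not pass (edgeR adjusted p = 0.170). LpxA changed by -0.25 ± 0.17 in Col-0 and 0.19 ± 0.16 in RNAi-MARS (SE, edgeR adjusted p = 0.249 and 0.377), with overlapping libraries in both. DESeq2 and limma-voom called none of the 5 in these comparisons, and none of the 5 had an unadjusted p under 0.05.

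Several genes that supply the pathway changed after ABA. A list of 18 such genes held 5 for the sugar acid Kdo, 5 for UDP-N-acetylglucosamine and 8 for mitochondrial fatty acid synthesis. In Col-0 5 of them rose and 3 fell, and in RNAi-MARS 4 rose and 4 fell. These 8 of 18 stand beside the 40.0% and 42.6% of all tested features that were called. The median log2 change of the list was 0.00 in Col-0 and 0.04 in RNAi-MARS. None of the 18 was called for the genotype at either time or for the difference between the responses. In these comparisons 0.0890% (each time) and 0% (the difference) of all tested features were called. Before ABA 1 of the 18, mtPPT, had an unadjusted p under 0.05 for the genotype, and after ABA none had. DESeq2 and limma-voom called the same numbers.

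UDP-N-acetylglucosamine synthesis provides the sugar that LpxA acylates. Of its 5 genes 3 rose in Col-0, where 20.7% of all tested features were called higher, and 2 rose and 1 fell in RNAi-MARS, where 21.6% were called higher and 21.0% lower. GFAT (AT3G24090), which commits fructose 6-phosphate to amino sugars, had 4.19, 3.85 and 4.03 CPM in Col-0 before ABA and 10.4, 10.4 and 14.0 CPM after it. In RNAi-MARS it had 4.74, 4.30 and 4.21 CPM before and 9.04, 11.03 and 8.95 CPM after ABA. All libraries after ABA were above all libraries before it. The log2 change was 1.53 ± 0.14 in Col-0 and 1.13 ± 0.14 in RNAi-MARS (SE, edgeR adjusted p = 1.4e-05 and 9.41e-05).

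DRT101, the phosphoacetylglucosamine mutase, rose from 6.44 ± 0.738 to 9.62 ± 0.318 CPM in Col-0 and from 6.39 ± 1.12 to 8.65 ± 0.823 CPM in RNAi-MARS (SD, n = 3), with edgeR adjusted p of 0.00755 and 0.0289. The DRT101 call in RNAi-MARS was lost without library B or C of either time (adjusted p = 0.0641 to 0.107) and with the RNAi-MARS libraries alone (adjusted p = 0.0599). GNA1, the glucosamine 6-phosphate acetyltransferase, rose in Col-0 from 2.75 ± 0.122 to 4.16 ± 0.451 CPM (SD, n = 3, edgeR adjusted p = 0.0138), a call lost without library A of Col-0 after ABA (adjusted p = 0.054). In RNAi-MARS GNA1 had 2.98 ± 0.461 before and 3.88 ± 0.431 CPM after ABA (SD, n = 3), which did not pass (edgeR adjusted p = 0.0818). GlcNAc1pUT2, 1 of the pair of uridylyltransferases that finish the nucleotide sugar, fell in RNAi-MARS by 0.35 ± 0.13 on the log2 scale (SE, edgeR adjusted p = 0.0406). Its change in Col-0 was -0.28 ± 0.13 (SE, edgeR adjusted p = 0.0963). The fall in RNAi-MARS was the least stable of these calls and held in 9 of 20 alternative settings.

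Of the 5 Kdo genes 2 rose in each genotype, beside 20.7% of all tested features called higher in Col-0 and 21.6% in RNAi-MARS. KDSA1, a Kdo 8-phosphate synthase, rose by 0.69 ± 0.11 on the log2 scale in Col-0 and 0.48 ± 0.11 in RNAi-MARS (SE, edgeR adjusted p = 0.000608 and 0.00506). KDSB, which activates Kdo by joining it to CMP, rose by 0.32 ± 0.09 and 0.34 ± 0.09 (SE, edgeR adjusted p = 0.0137 and 0.00946), and its call in Col-0 was lost without library B of Col-0 before or after ABA (adjusted p = 0.0547 and 0.053). Its level was 30.2 ± 1.75 and 37.8 ± 1.92 CPM in Col-0 before and after ABA (SD, n = 3). KDTA, the transferase that would attach Kdo to the lipid A precursor, was not called, with changes of -0.31 ± 0.14 and 0.05 ± 0.14 (SE, edgeR adjusted p = 0.0987 and 0.806). KDSA2, the other Kdo 8-phosphate synthase, changed by 0.04 ± 0.11 and -0.03 ± 0.11 (SE) and was not called.

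Of the 8 mitochondrial fatty acid genes 3 fell and none rose in either genotype, beside 19.3% of all tested features called lower in Col-0 and 21.0% in RNAi-MARS. They were mtACP2 and mtACP3, acyl carrier proteins on which the chains are built, and mtPPT, which attaches the arm that holds the chain. The level of mtACP3 was 11.7 ± 0.381 and 7.23 ± 1.77 CPM in Col-0 before and after ABA, and 12.8 ± 1.43 and 7.72 ± 0.221 CPM in RNAi-MARS (SD, n = 3). These are log2 changes of -0.69 ± 0.15 and -0.73 ± 0.15 (SE, edgeR adjusted p = 0.00426 and 0.00276). The change of mtACP2 was -0.32 ± 0.08 and -0.30 ± 0.08 (SE, edgeR adjusted p = 0.0101 and 0.0133). The change of mtPPT was -0.76 ± 0.14 and -0.45 ± 0.14 (SE, edgeR adjusted p = 0.0015 and 0.024). The remaining carrier, mtACP1, was not called, with changes of 0.05 ± 0.12 in both (SE) and 65.6 ± 0.763 and 68.1 ± 3.42 CPM in Col-0 (SD, n = 3). The call for mtACP2 was lost in Col-0 without library A after ABA (adjusted p = 0.0553), and in RNAi-MARS without library B after ABA (adjusted p = 0.0673) or with the RNAi-MARS libraries alone (adjusted p = 0.0517). The call for mtPPT in RNAi-MARS was lost without library A or C before ABA or library B or C after it (adjusted p = 0.0552 to 0.097).

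The summed level of 5 green tissue markers moved with the same time contrast, from 28299 to 37344 CPM in Col-0 before ABA to 21641 to 24941 CPM after it, and from 31383 to 33376 to 15406 to 24881 CPM in RNAi-MARS. Root markers overlapped, with 1982 to 2770 and 2077 to 2693 CPM in Col-0 and 2196 to 2423 and 1936 to 2700 CPM in RNAi-MARS, and the part of tissue make-up in the ABA changes was not tested. Between the genotypes before ABA the green tissue sums overlapped. Markers of flower and seed stayed at or below 0.866 CPM in sum.

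**Figure D5:**
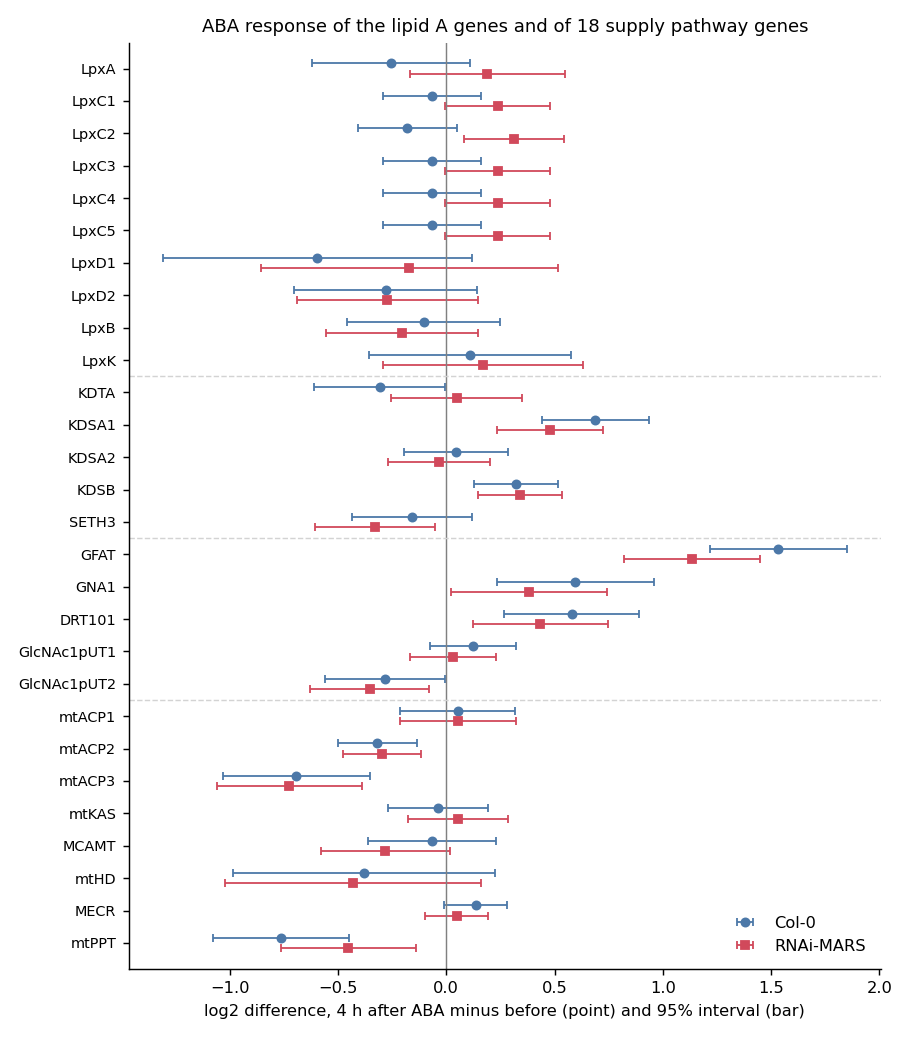
Log2 change from before to 4 h after ABA in Col-0 (circles) and RNAi-MARS (squares) with 95% intervals, for the 10 lipid A genes and, below the dashed lines, 5 Kdo, 5 UDP-N-acetylglucosamine and 8 mitochondrial fatty acid genes. GFAT has the highest change in both genotypes (1.53 and 1.13), and mtACP3 and mtPPT are among the lowest.

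The bases before the gene start were searched for ACGTG, the core of the element bound by ABA-responsive bZIP factors, on both strands from 250 bases before to 50 bases after the annotated start. Of 27444 protein-coding genes 26.7% held at least 1 match in that window of 300 bases. Of the 10 lipid A genes 1 did, LpxD2, though LpxC1, LpxC3, LpxC4 and LpxC5 share their sequence here and are not separate cases. Of the 18 supply genes 5 did, namely GFAT, DRT101, KDTA, mtACP1 and MCAMT. Of these 5, GFAT and DRT101 rose after ABA and the other 3 were not called. KDSA1, KDSB and GNA1, which also rose in at least 1 genotype, held no match. The 250 bases before LpxC1, which are the same before the other LpxC loci, and those before GFAT are printed as examples of a start with no match and of one with several. Matches to ACGTG on either strand are in capitals, and overlapping matches share letters.
LpxC1, chr1:8767312-8767561, plus strand: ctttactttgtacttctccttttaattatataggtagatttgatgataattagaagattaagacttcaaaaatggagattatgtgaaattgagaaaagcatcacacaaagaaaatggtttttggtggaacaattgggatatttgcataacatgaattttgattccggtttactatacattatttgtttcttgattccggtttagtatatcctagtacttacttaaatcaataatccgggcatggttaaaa
GFAT, chr3:8701053-8701302, minus strand: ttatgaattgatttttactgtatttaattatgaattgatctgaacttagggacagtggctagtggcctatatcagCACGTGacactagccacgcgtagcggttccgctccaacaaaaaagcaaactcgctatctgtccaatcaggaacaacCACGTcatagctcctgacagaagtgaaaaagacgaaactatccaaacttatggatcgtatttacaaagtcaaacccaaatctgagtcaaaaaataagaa

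Genes whose levels followed the 5-gene sum most closely were taken from 21779 nuclear genes by Pearson r of log2 CPM over the 12 libraries, which share the genotype difference. The 5 highest lie in the same repeated segment, namely AT1G25098 and AT1G25175 (r = 0.999 each), AT1G25141 (r = 0.983), AT1G24879 (r = 0.978) and AT1G25209 (r = 0.977), and part of their reads may be the same reads. Among genes more than 100 kb away or on another chromosome the highest was AT4G34480 on chromosome 4 (r = 0.966). It was followed at a distance by AT3G07700 (r = 0.863), AT5G18340 (r = 0.842), AT5G35935 (r = 0.839) and TOP1BETA (r = 0.835). None of the other lipid A genes was among them.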

How the data were processed

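Whole seedlings of 4 groups were measured by RNA-seq, with 3 libraries each and total counts of 19020202 to 38787804. The authors deposited estimated counts per feature without normalization, and the tools listed in the submitters' processing notes are STAR 2.7.2a, Trimmomatic 0.36 and featureCounts (Subread 1.6.5), with the build TAIR10. Settings for strand and for reads with several matches are not given in the sources used here, so overlapping genes (here of LpxA, LpxC1, LpxD1, KDSA2, GNA1, mtACP2 and mtACP3) may share counts.

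Counts were rounded and tested in R 4.3.3 with edgeR 4.0.16: TMM, filterByExpr at a minimum count of 10, robust quasi-likelihood F test, 1 coefficient per group over all 12 libraries, 2-sided, Benjamini-Hochberg over all 22465 tested features, called under 0.05. For a sum, its members were replaced by 1 feature. SE is the log2 difference over the square root of F, and 95% intervals use the t distribution of the fit. Alternatives were DESeq2 1.42.0, limma-voom (limma 3.58.1), other scaling, filters and samples. The procedure was tested on simulated data. Copies were found with BLAST+ 2.17.0 in TAIR10.1, whose RefSeq annotation supplied positions and exon lengths. All 10 members passed the filter.

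Named genes are the 10 members, supply genes called in at least 1 comparison, MARS, and the 5 nuclear genes most like the LpxC sum overall and beyond 100 kb. KDTA, KDSA2, mtACP1 and MCAMT were named after their values were seen. The members and lists were chosen with earlier results of these data known. Same-lettered libraries did not deviate together throughout, so the letters were not used as pairs. Library pairs of a group differed by more than sampling noise (chi-square per degree of freedom at least 6.55).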

Additional observations from a re-analysis of the deposited data

How the results depend on the processing

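For 70 results 1382 alternative values were computed, of which 1344 were classed as unchanged. LpxC1, LpxC3, LpxC4, LpxC5 and their sum enter as separate results, so these counts repeat a single measurement. A tested difference was unchanged when it kept its direction and call. An LpxC genotype difference was unchanged when it kept its direction and moved by less than the SD within groups. A count of called genes was unchanged within a set factor. The count of called supply genes in Col-0 after ABA (8) was therefore classed as unchanged at 6. The rise of the 5-gene LpxC sum after ABA in RNAi-MARS (0.291 on the log2 scale) ranged from 0.182 to 0.377 when 1 library was left out, with adjusted p of 0.00993 to 0.130. It was not called with the compared groups alone (0.316) or with AT1G24880 left out of the sum (0.232), an alternative chosen after seeing the data. The count of called supply genes in RNAi-MARS after ABA (8) was 4 to 8 with 1 library left out, with 4 when RNAi-MARS library B after ABA was left out and 5 when library C before ABA was. It was 5 with the compared groups alone. The genotype difference of the 5-gene sum lay between -2.00 and -1.95 before ABA and between -1.67 and -1.45 after it over all alternatives. No alternative gave a call among LpxA, LpxD1, LpxD2, LpxB and LpxK.

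Uncalled log2 differences changed sign in 24 values, all with 1 library left out. The ranges for the genotype before ABA were -0.007 to 0.163 (LpxA), -0.265 to 0.065 (LpxD1), -0.042 to 0.227 (LpxD2) and -0.128 to 0.210 (LpxK). After ABA they were -0.031 to 0.527 (LpxD1), -0.015 to 0.177 (LpxD2), -0.063 to 0.204 (LpxB) and -0.025 to 0.200 (LpxK). For the ABA response in Col-0 they were -0.266 to 0.020 (LpxB) and -0.050 to 0.288 (LpxK). For the difference between the responses they were -0.136 to 0.131 (LpxD2), -0.207 to 0.062 (LpxB) and -0.118 to 0.219 (LpxK). The cause was not tested.

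Same-letter libraries correlated in their deviations from group means at -0.299 to 0.403, over 0.1 in 8 of 18 pairs, so the letters were not used as pairs. With the letter as a replicate block the 5-gene sum changed by 0.289 after ABA in RNAi-MARS (adjusted p = 0.0440), and 8 supply genes were called in each genotype, GlcNAc1pUT2 in RNAi-MARS not among them (adjusted p = 0.0562). LpxD1 had too few counts for the stricter filter, and the difference between the responses cannot be fitted on fewer groups, so these alternatives gave no value. DESeq2 gave no adjusted p for the genotype after ABA for LpxA, LpxD1, LpxD2 and LpxK. At 12 to 51 counts of LpxD1 per library, small differences were not detectable.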
